A study of Mus musculus with 6 samples.

Results

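The transcription factors that divide the cortical sheet into areas were described in the postnatal day (P) 7 mouse cortex, in 3 wildtype and 3 Zmiz1-KO libraries, named by their labels. The members were taken by gene symbol for their known role, with earlier results of these data known, and are Emx1, Emx2, Pax6, Lhx2, Nr2f1, Nr2f2, Rorb, Bhlhe22, Lmo3 and Lmo4. All 10 were present among the 24972 genes of the deposited table, and all 10 were among the 15800 tested genes, those that reached 10 normalized counts in 3 or more libraries. Total RNA came from the cortex. Wildtype mice carried floxed Zmiz1 alleles (Zmiz1f/f) and no Cre, and knockout mice were Zmiz1f/f;Emx1Cre, so the floxed alleles were shared by both groups. The knockout thus differed from the control in Cre as well as in Zmiz1, and Emx1, a member of the group described here, is the gene whose locus drives Cre in this mouse line. A consequence of the Emx1Cre allele and one of Zmiz1 deletion cannot be told apart for any gene in this design. Emx1Cre acts in the dorsal lineage that gives excitatory neurons and glia of the cortex, and not in the interneurons that migrate in from ventral forebrain. Strain, litter and sex were not among the labels.

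Cortical areas arise from gradients. Signaling centers at the edges of the early cortex release FGF, WNT and BMP ligands, and progenitors answer with graded transcription factors, among them Pax6, which is high rostrolaterally, and Emx2 and Nr2f1 (COUP-TFI), which are high caudally. Newborn neurons then carry areal identity in a second layer of factors. Bhlhe22 (Bhlhb5) and Rorb are prominent in sensory areas, and Lmo4 is prominent in frontal and motor areas. At P7 areas are already laid out, so transcript levels from a whole cortex reflect neurons and glia across all areas, and no position along a gradient can be read from them.

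Zmiz1, the targeted gene, had 8119, 7929 and 7461 normalized counts in the wildtype group (replicates 1, 2 and 3, the order used throughout) and 9944, 9779 and 9660 in the Zmiz1-KO group. It stood higher where the label gives its deletion, by 0.32 on the log2 scale (SE 0.040, adjusted p = 0.00125 in limma), so its libraries are called KO-labelled. If the labels were exchanged, each direction given here would turn, and this was not tested. The table holds a value per gene, which does not separate transcripts with and without the floxed part. Estimated counted reads ran from 15494889 to 17858391 per library. Wildtype replicate 3 and KO-labelled replicate 2 were female by Xist and the others male by Ddx3y. No marker in the cell type lists averaged under 10 normalized counts. The 6 excitatory neuron markers summed to 36336 to 40517 normalized counts in wildtype and to 36884 to 38509 in KO-labelled libraries, so the sums overlapped. By gene 5 of the 6 were lower and 1 higher, with a median log2 fold change of -0.11, and none passed an adjusted p of 0.05 in limma. The labels also speak of isolated progenitors. The 6 markers of dividing progenitors summed to 5348 to 5693 normalized counts in wildtype and 5615 to 6104 in KO-labelled libraries. These sums overlapped too, with 5 of the 6 markers higher and 1 lower. Without a reference level they cannot show whether progenitors were isolated.

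The promoters of the 3 members that passed the test (Emx1, Lhx2 and Rorb) are shown beside that of Emx2, the closest relative of Emx1, which did not pass. Each is the stretch from 250 bases before to 50 after a transcription start in RefSeq on GRCm38.p6, on the strand of the gene and from 5′ to 3′. Capitals mark the GC box GGGCGG or its reverse complement CCGCCC, and the homeodomain core TAATTA. Emx1 lies at chr6:85187681-85187980 (+), Lhx2 at chr2:38339031-38339330 (+), Rorb at chr19:19111147-19111446 (-) and Emx2 at chr19:59458440-59458739 (+). The windows of Emx1 and Emx2 begin after the gene starts given by GENCODE, 85187438 and 59458372, so by that annotation they lie inside the gene.

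Emx1: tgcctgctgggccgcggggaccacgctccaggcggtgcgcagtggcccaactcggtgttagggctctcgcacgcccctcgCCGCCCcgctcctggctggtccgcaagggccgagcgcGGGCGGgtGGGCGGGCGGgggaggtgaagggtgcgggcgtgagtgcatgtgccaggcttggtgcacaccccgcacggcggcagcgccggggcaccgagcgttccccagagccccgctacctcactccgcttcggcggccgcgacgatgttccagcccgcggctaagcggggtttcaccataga

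Lhx2: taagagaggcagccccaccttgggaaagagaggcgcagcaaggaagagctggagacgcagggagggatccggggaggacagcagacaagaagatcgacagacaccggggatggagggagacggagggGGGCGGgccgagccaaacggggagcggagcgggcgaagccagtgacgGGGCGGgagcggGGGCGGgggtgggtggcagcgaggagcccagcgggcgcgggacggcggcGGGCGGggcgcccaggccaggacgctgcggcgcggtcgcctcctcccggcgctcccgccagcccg

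Rorb: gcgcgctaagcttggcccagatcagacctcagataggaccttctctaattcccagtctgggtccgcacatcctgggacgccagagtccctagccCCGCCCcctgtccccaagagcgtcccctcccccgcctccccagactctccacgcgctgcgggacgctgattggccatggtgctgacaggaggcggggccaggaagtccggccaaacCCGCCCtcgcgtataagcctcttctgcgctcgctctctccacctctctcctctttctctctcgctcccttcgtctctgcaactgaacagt

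Emx2: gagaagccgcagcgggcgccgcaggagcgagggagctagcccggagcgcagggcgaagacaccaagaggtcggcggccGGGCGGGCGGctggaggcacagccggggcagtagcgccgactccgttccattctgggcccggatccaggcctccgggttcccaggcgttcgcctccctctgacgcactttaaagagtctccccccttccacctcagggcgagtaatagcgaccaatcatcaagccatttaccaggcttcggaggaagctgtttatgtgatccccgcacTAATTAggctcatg

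The letters GGGCGG, on either strand and with overlapping matches counted apart, occurred 4 times in the Emx1 window, 4 times in that of Lhx2, 2 times in that of Rorb and 2 times in that of Emx2. Of 32851 promoter windows of this length, 35.7% held it at least once. TAATTA, found in 5.29% of all windows, occurred 1 time in the Emx2 window. AGGTCA, the half-site bound by nuclear receptors such as Nr2f1 and Rorb, is present in 16.3% of all windows in either orientation and was absent from these 4. The GC content was 74.0% for Emx1, 74.7% for Lhx2, 63.7% for Rorb and 64.3% for Emx2, against a median of 52.7% over all windows. Lhx2 and Rorb have a further start each in the same table, at chr2:38351058-38351357 (+) and chr19:19001068-19001367 (-), and neither of those windows held any of the 3 motifs. Bhlhe22 has no entry.

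Of the 10 factors, 3 fell in the KO-labelled libraries, none rose and 7 did not pass the test. Emx1 fell by 30.7%, Rorb fell by 25.8% and Lhx2 fell by 16.2%. Among all tested genes 0.411% passed the same threshold, an adjusted p of 0.05 in limma, 0.247% with lower and 0.165% with higher KO-labelled values. At an adjusted p of 0.1 the same number of factors, 3, passed, against 0.671% of all genes. In 5 factors the 3 KO-labelled values lay below the 3 wildtype values, against 8.16% of all tested genes, and in 1, Lmo4, they lay above, against 8.10%. Over the 10 factors the log2 fold changes had a median of -0.13, and over all tested genes one of 0.00. The factors were chosen with earlier results of these data known, so none of these comparisons with all genes is a test of the group. These libraries are of bulk tissue, where fewer cells of a type and less RNA per cell cannot be told apart.

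**Figure D1:**
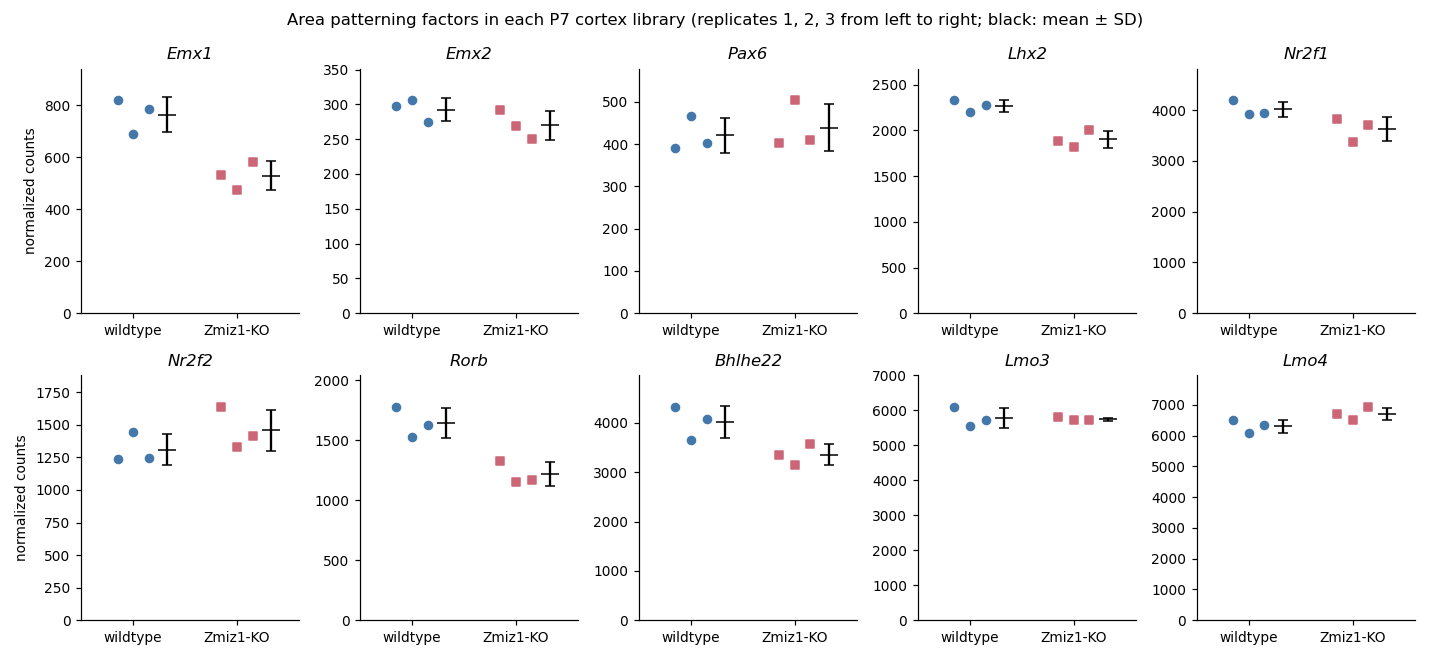
Normalized counts (vertical axes, from 0) of the 10 factors in each of the 3 wildtype libraries (circles) and 3 KO-labelled libraries (squares), with the mean and SD of each group in black. The groups are apart, with lower KO-labelled values, in Emx1, Lhx2, Nr2f1, Rorb and Bhlhe22, and apart with higher values in Lmo4.

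Levels can be compared between genes only per length. Divided by the exonic length of each gene in GENCODE, the wildtype mean was highest for Lmo4, at 1785 ± 60.4 normalized counts per kb (SD, n = 3). Bhlhe22 (1202 ± 98.9 per kb) and Lmo3 (1127 ± 53.9 per kb) came next and overlapped with each other. Nr2f1 had 788 ± 29.9 per kb, Lhx2 516 ± 14.8 and Emx1 349 ± 31.0, each apart from its neighbours in this order. Nr2f2 (152 ± 13.8 per kb) and Rorb (148 ± 11.2 per kb) overlapped in wildtype but not in KO-labelled libraries, where Nr2f2 had 169 ± 18.3 per kb and Rorb 110 ± 8.76. Emx2 had 97.5 ± 5.44 per kb and Pax6, the lowest, 36.0 ± 3.47. The factors of progenitors thus spanned the lower and middle part of this order, and the LIM-only factors and Bhlhe22 its top. Exonic length sums the exons of every annotated isoform, so a gene with long isoforms that are rarely used is placed lower than its main transcript alone would be. Pax6 with 11.694 kb and Rorb with 11.076 kb were the longest of the factors, and the use of their isoforms was not measured.

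Emx1 and Emx2 are related homeodomain factors of the dorsal forebrain. Emx1, on chromosome 6 of GRCm38 from 85187438 to 85204462 (plus strand), had 818, 688 and 784 normalized counts in wildtype and 532, 473 and 583 in KO-labelled libraries. All KO-labelled values were thus lower than any wildtype value, with replicate 2 the lowest of its group in both. The means were 763 ± 67.6 and 529 ± 55.1 (SD, n = 3 each). Emx1 thus fell by 0.53 on the log2 scale (SE 0.090, 95% interval -0.72 to -0.34, adjusted p = 0.0150 in limma). Among all tested genes, Emx1 ranked 602 by the size of its change and 23 by p. Emx1 is also the gene of the Cre allele, which the KO-labelled group alone carries. Its call was lost without wildtype replicate 1 (limma adjusted p = 0.0871), wildtype replicate 3 (0.0628) or KO-labelled replicate 1 (0.0713), and without robust estimation (0.0755). It was also lost without both female libraries (limma adjusted p = 0.0659), while the log2 fold change stayed between -0.60 and -0.40 over the 18 alternatives.

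Emx2, on chromosome 19 from 59458372 to 59465357 (plus strand), had 298, 306 and 274 normalized counts in wildtype and 292, 268 and 251 in KO-labelled libraries. The groups overlapped, and the log2 fold change of -0.12 had a 95% interval of -0.34 to 0.11 (limma adjusted p = 0.764), and, as a linear ratio, reached from 0.788 to 1.08. Emx2 shares 264 exonic bases, 8.79% of its exonic length, with Emx2os on the opposite strand, and the library kit does not mark strand, so reads of the pair cannot be told apart there. Emx2os itself had 107 ± 10.2 and 98.5 ± 3.22 normalized counts (SD, n = 3 per group; log2 fold change -0.11, limma adjusted p = 0.875). Within each library, the ratio of Emx1 to Emx2 was 2.75, 2.25 and 2.86 in wildtype and 1.82, 1.76 and 2.33 in KO-labelled libraries. The ranges of this ratio overlapped slightly, and its log2 value differed by -0.41 (exact permutation test, two-sided, p = 0.2, and 0.267 after adjustment over the 4 ratios compared). Such a test over 3 libraries against 3 cannot give a p below 0.1.

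Pax6, the paired-box factor that counters Emx2 in the progenitor gradient, lies on chromosome 2 from 105668900 to 105697364 (plus strand). It had 391, 467 and 403 normalized counts in wildtype and 403, 503 and 410 in KO-labelled libraries, so the groups overlapped and replicate 2 was the highest in each. Its log2 fold change of 0.06 had an interval of -0.16 to 0.28 (limma adjusted p = 0.896), and the sign turned without KO-labelled replicate 2 (-0.04). The ratio of Emx2 to Pax6 was 0.699 ± 0.0559 in wildtype and 0.623 ± 0.0958 in KO-labelled libraries (SD, n = 3 per group; exact permutation p = 0.3, adjusted 0.3).

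Lhx2 is a LIM-homeodomain factor that gives cortical identity to early progenitors and stays on in upper-layer neurons. It lies on chromosome 2 from 38339281 to 38369733 (plus strand). Wildtype libraries had 2327, 2199 and 2281 normalized counts and KO-labelled libraries 1887, 1814 and 2002. The groups were apart by more than the range within either. The means were 2269 ± 64.9 and 1901 ± 94.8 (SD, n = 3 each). Lhx2 fell by 0.26 on the log2 scale (SE 0.052, interval -0.36 to -0.15, adjusted p = 0.0411 in limma). This call was close to the threshold: of the 6 fits with 1 library left out it held in the fit without wildtype replicate 2 (limma adjusted p = 0.0436) and was lost without wildtype replicates 1 (0.143) or 3 (0.107) or KO-labelled replicates 1 (0.200), 2 (0.0618) or 3 (0.0850). It was lost as well without robust estimation (limma adjusted p = 0.103), with sex as a covariate (0.0506) and without both female libraries (0.102).

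Nr2f1 (COUP-TFI) and Nr2f2 (COUP-TFII) are orphan nuclear receptors, the former graded across the cortex and the latter strong in interneurons of caudal origin. Nr2f1, on chromosome 13 from 78188973 to 78199757 (minus strand), had 4191, 3918 and 3938 normalized counts in wildtype and 3832, 3371 and 3705 in KO-labelled libraries. Each KO-labelled value lay under each wildtype value, but the gap between the groups was narrow beside the spread among the KO-labelled libraries. The log2 fold change was -0.14 (SE 0.051, interval -0.25 to -0.04) and did not pass (adjusted p = 0.283 in limma). Nr2f2, on chromosome 7 from 70351944 to 70366735 (minus strand), had 1236, 1446 and 1244 normalized counts in wildtype and 1635, 1329 and 1411 in KO-labelled libraries. These groups overlapped, and the log2 fold change of 0.15 had an interval of -0.02 to 0.33 (limma adjusted p = 0.533). Both share exonic bases with a gene on the opposite strand, Nr2f1 2.42% with A830082K12Rik and Nr2f2 7.46% with B130024G19Rik, whose log2 fold changes were -0.02 and -0.01.

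The ratio of Nr2f1 to Nr2f2 was 3.39, 2.71 and 3.16 in wildtype and 2.34, 2.54 and 2.63 in KO-labelled libraries. All KO-labelled ratios were thus below all wildtype ratios. On the log2 scale the difference was -0.30 (exact permutation p = 0.1, the smallest possible, and 0.2 after adjustment over the 4 ratios).

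**Figure D2:**
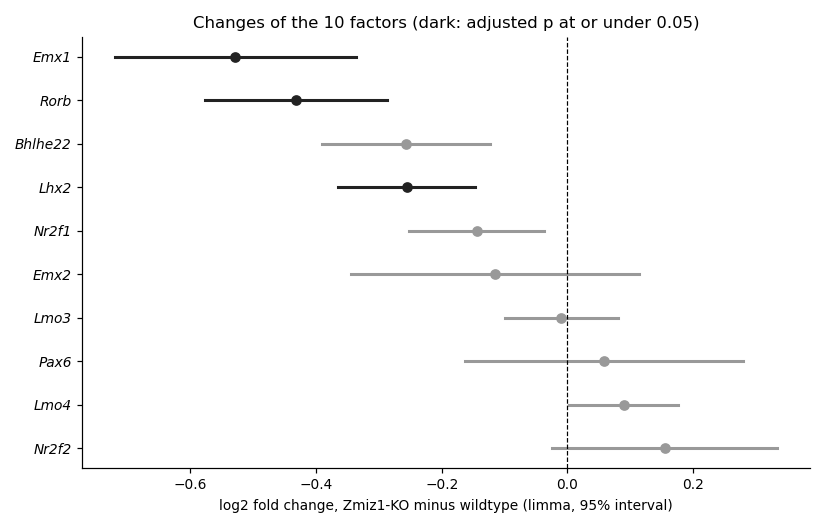
Log2 fold change of each factor, KO-labelled minus wildtype (horizontal axis), with its 95% interval from limma. Dark symbols mark Emx1 (-0.53), Rorb (-0.43) and Lhx2 (-0.26), whose adjusted p was at or under 0.05, and the interval of Bhlhe22 has almost the same centre as that of Lhx2 but is wider.

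Rorb and Bhlhe22 mark neurons of sensory areas. Rorb encodes an orphan nuclear receptor of layer 4, the layer that receives thalamic input, and lies on chromosome 19 from 18930605 to 19111196 (minus strand). It had 1776, 1529 and 1627 normalized counts in wildtype and 1331, 1156 and 1170 in KO-labelled libraries. The gap between the lowest wildtype and the highest KO-labelled library was smaller than the wildtype range and larger than the KO-labelled one. Rorb fell by 0.43 on the log2 scale (SE 0.068, interval -0.58 to -0.29, adjusted p = 0.00856 in limma), and ranked 18 by p among all tested genes. Over the 6 fits with 1 library left out, the call was lost without KO-labelled replicate 3 (limma adjusted p = 0.0975). It was lost too without robust estimation (limma adjusted p = 0.0556).

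Bhlhe22, a basic helix-loop-helix factor of postmitotic neurons in sensory and caudal motor areas, lies on chromosome 3 from 18054174 to 18057517 (plus strand). Wildtype libraries had 4315, 3661 and 4078 normalized counts and KO-labelled ones 3353, 3154 and 3567. No KO-labelled value reached the lowest wildtype value, that of replicate 2, and KO-labelled replicate 3 came nearest to it. The log2 fold change of -0.26 (SE 0.062, interval -0.39 to -0.12) equalled that of Lhx2 to 2 decimals and did not pass the threshold (limma adjusted p = 0.127). Without wildtype replicate 2 it passed (limma adjusted p = 0.0159), and so it did with the replicate number as a block (0.00760), a fit that called 1.06% of all genes.

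Lmo3 and Lmo4 are LIM-only proteins, which bind the same Ldb cofactors as Lhx2 but carry no DNA-binding domain. Lmo3, on chromosome 6 from 138362918 to 138581968 (minus strand), had 6088, 5542 and 5732 normalized counts in wildtype and 5799, 5712 and 5724 in KO-labelled libraries. The KO-labelled values all fell inside the wildtype range. Its log2 fold change of -0.01, which turned to 0.00086 under upper-quartile scaling and to 0.03 without wildtype replicate 1, had the narrow interval of -0.10 to 0.08 (limma adjusted p = 0.962). Lmo4, on chromosome 3 from 144188530 to 144205220 (minus strand), had 6497, 6075 and 6336 normalized counts in wildtype and 6691, 6506 and 6915 in KO-labelled libraries. Its groups were apart by little, with 6497 as the highest wildtype and 6506 as the lowest KO-labelled value. The log2 fold change of 0.09 (interval 0.00 to 0.18) had a limma adjusted p of 0.441. The ratio of Lmo4 to Lmo3 was 1.09 ± 0.0199 in wildtype and 1.17 ± 0.0364 in KO-labelled libraries (SD, n = 3 per group), with groups apart and a difference of 0.10 on the log2 scale (exact permutation p = 0.1, adjusted 0.2).

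The 5 factors whose KO-labelled values lay below all wildtype values shared their end libraries. In all 5 of them, wildtype replicate 1 was the highest and KO-labelled replicate 2 the lowest of the 6 libraries. The same pair of libraries stood at the ends of 3 marker sums for other cells, while other marker sums that differed between the groups had different end libraries. The sum of the layer 4 list described below also had this pair at its ends. The 13 interneuron markers summed to 20330 to 25086 normalized counts in wildtype and to 25771 to 28041 in KO-labelled libraries. By log2 fold change 12 of the 13 were higher and none passed the test. In limma 8 were at an unadjusted p under 0.05, against 11.0% of all tested genes. In 5 the KO-labelled values lay above all wildtype values, against 8.10%. The 7 striatal markers summed to 13936 to 17789.5 and 18979 to 21342, all 7 higher, of which Pde10a passed. The 5 meningeal markers summed to 14516 to 17595 and 19241 to 21235, all 5 higher, of which Col1a2 passed. In each of these 3 sums wildtype replicate 1 was the lowest library and KO-labelled replicate 2 the highest, and the groups did not overlap.

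**Figure D3:**
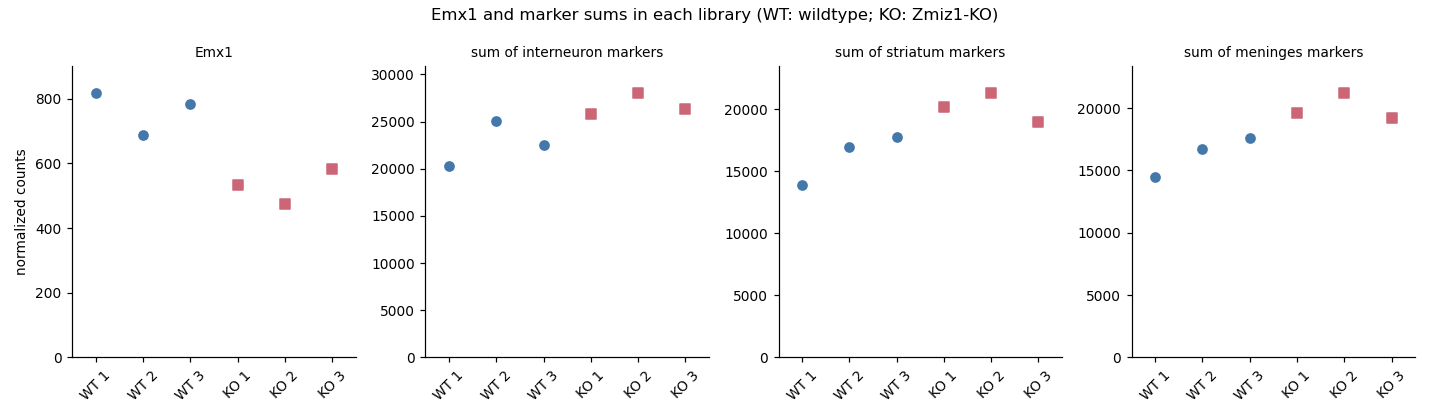
Normalized counts of Emx1 and summed normalized counts of the interneuron, striatal and meningeal marker lists (vertical axes, from 0) in each library, wildtype as circles and KO-labelled as squares. Emx1 is lowest and the 3 sums are highest in KO-labelled replicate 2, and the 3 sums are lowest in wildtype replicate 1, where Emx1 is highest at 818.

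Without that pair of libraries, an alternative chosen after the data were seen, Emx1, Lhx2 and Rorb passed (limma adjusted p = 0.0182, 0.0464 and 0.00555). Their log2 fold changes were smaller, at -0.40, -0.20 and -0.34. That fit called 2.30% of all the genes it tested, against 0.411% with all 6 libraries. The pair stood at the ends of these same factors, so leaving it out narrows their spread and cannot show that the calls hold. Other lists moved as well. The 7 markers of the oligodendrocyte lineage summed to 16694 to 18603 normalized counts in wildtype and to 14931 to 15583 in KO-labelled libraries, with 6 of 7 lower and Olig1 past the test. Hippocampal markers were higher in sum (3019 to 3166 against 3398 to 3459) and thalamic markers lower (3311 to 3432 against 3032 to 3237), with no single gene called in either. By gene both lists were mixed, with 3 hippocampal markers higher and 2 lower, and 2 thalamic markers higher and 3 lower. The oligodendrocyte and thalamic sums were highest in wildtype replicate 2 and lowest in KO-labelled replicate 3. The hippocampal sum was lowest in wildtype replicate 1 and highest in KO-labelled replicate 1. Sums of excitatory neuron, astrocyte, microglial, endothelial, pericyte, choroid plexus, Cajal-Retzius and dividing progenitor markers overlapped between the groups. Among the 8 astrocyte markers Aqp4, a water channel gene, nevertheless fell, by 0.29 on the log2 scale (SE 0.044, adjusted p = 0.00499 in limma). The choroid plexus sum varied most, from 290 to 8379 normalized counts in wildtype and from 353 to 4843 under the KO label. The part of these other cells in the levels of the 10 factors was not tested.

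Related genes of area patterning were read from fixed lists. Of 66 listed genes beside the members, 59 were tested, and 1 passed, while 0.411% of all genes did. At an unadjusted p under 0.05 stood 20 of the 59, against 11.0% of all tested genes, the share beside which the counts at that level in each list below are to be read. Of the 59, 12 had KO-labelled values below all wildtype values and 7 above, while 8.16% and 8.10% of all tested genes did. Among 16 ligands, receptors and modulators of the patterning centers, 13 were tested and none passed in limma, with 3 at an unadjusted p under 0.05. Their median log2 fold change was -0.03. Fgf17, a ligand of the rostral center, showed the greatest difference, with 16.2, 12.6 and 12.4 normalized counts in wildtype and 35.5, 23.8 and 22.4 in KO-labelled libraries (difference 0.92 on the log2 scale, SE 0.37, adjusted p = 0.359 in limma). Fgf8, Wnt3a and Wnt8b averaged under 10 normalized counts in both groups.

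The 16 other transcription factors with areal or graded roles were all tested. None passed in limma, 6 were at an unadjusted p under 0.05, and their median log2 fold change was -0.01, with 8 higher and 8 lower. Dmrt3, a factor of the caudomedial progenitor gradient, had the greatest difference, 1.18 (limma adjusted p = 0.518), on 2.05 to 14.7 normalized counts in wildtype and 11.0 to 14.3 in KO-labelled libraries, so the groups overlapped. All 11 graded effectors, such as ephrin receptors and cadherins with areal boundaries, were tested and none passed (limma; 6 at an unadjusted p under 0.05). Of them 9 were lower, 6 without overlap, and the list summed to 32353 to 32872 normalized counts in wildtype and 29903 to 30561 in KO-labelled libraries. The greatest difference was that of Epha5, an ephrin receptor of axon mapping, at -0.26 on the log2 scale with an adjusted p of 0.103 in limma.

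The LIM partners Ldb1, Ldb2, Ssbp2, Ssbp3, Ssbp4 and Rlim form or dispose of the complexes in which Lhx2 acts and with which Lmo3 and Lmo4 compete. None of the 6 passed in limma (2 at an unadjusted p under 0.05), and their log2 fold changes ran from -0.13 for Rlim, a ubiquitin ligase of the cofactors (limma adjusted p = 0.340), to 0.11. Of 9 close relatives of the factors, 5 were tested, all 5 were higher and none passed (limma; 1 at an unadjusted p under 0.05). Nr2f6, also in the previous list of factors, had the greatest difference among them (0.15 on the log2 scale, limma adjusted p = 0.378). Rora, the relative of Rorb, had 714, 715 and 783 normalized counts in wildtype and 745, 853 and 783 in KO-labelled libraries, and the groups overlapped. Pax3 was listed at 0 in every library, and Bhlhe23 and Pax7 averaged under 10 over the 6 libraries.

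Of 10 genes of layer 4 and neighbouring upper-layer neurons, all tested, 8 were lower, 3 of them without overlap. Only Plcxd2 passed (limma; 3 at an unadjusted p under 0.05). Among all tested genes 0.411% passed and 8.16% had KO-labelled values below all wildtype values. Plcxd2, which encodes a protein with a phospholipase C domain, had 8058, 6994 and 7370 normalized counts in wildtype and 6244, 5716 and 5924 in KO-labelled libraries, and it fell by 0.32 on the log2 scale (SE 0.051, adjusted p = 0.00999 in limma). This call was lost without KO-labelled replicate 3, which left 0 called genes in the lists, without robust estimation and without both female libraries. The greatest difference in the list, -0.43, was that of the potassium channel gene Kcnh5, on 73.9 to 117 normalized counts in wildtype and 58.5 to 101 in KO-labelled libraries, with overlapping groups (limma adjusted p = 0.537). The list summed to 16794 to 18541 normalized counts in wildtype and to 14874 to 15479 in KO-labelled libraries, so the sums were apart. Its median log2 fold change was -0.11. Wildtype replicate 1 had the highest sum and KO-labelled replicate 2 the lowest.

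**Figure D4:**
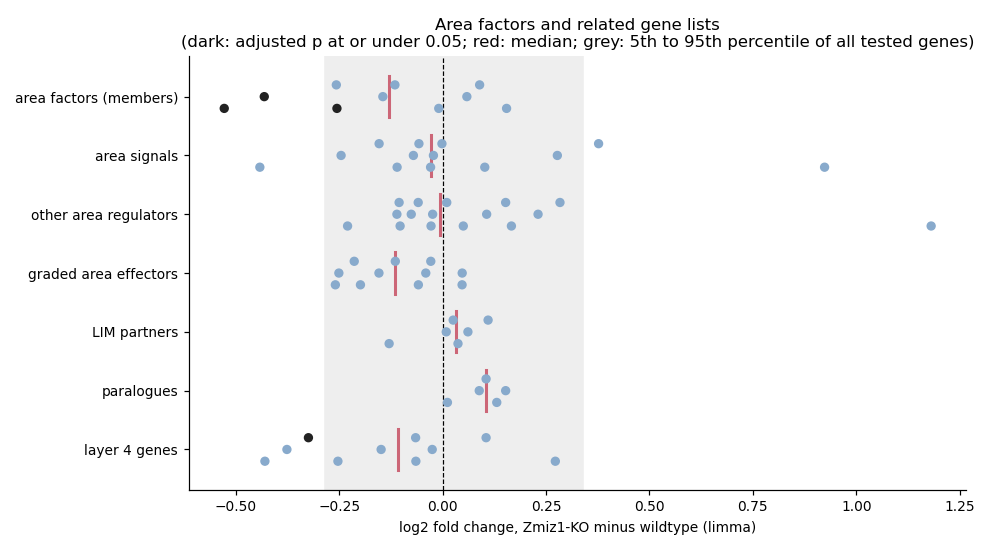
Log2 fold change, KO-labelled minus wildtype (horizontal axis), of each tested gene of the area factors and 6 related lists, with the median of each list in red and the 5th to 95th percentile of all tested genes (-0.29 to 0.34) in grey. Dark points, with an adjusted p at or under 0.05, are Emx1, Rorb and Lhx2 among the factors and Plcxd2 among the layer 4 genes.

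The genes whose profile over the 6 libraries was nearest to each factor that fell were sought among 12782 tested genes with a mean of at least 100, by the root mean square difference of centred log2 values. For Emx1, whose own root mean square deviation was 0.29, these were Pla2g3, a secreted phospholipase gene (0.069), Lpar6, a lysophosphatidic acid receptor gene (0.072), and Fam160a1 (0.078). For Lhx2 (own deviation 0.14) they were Sorcs1 (0.025), Frg2f1 (0.033) and Col24a1 (0.035), a collagen gene. For Rorb (own deviation 0.23) they were 9030025P20Rik (0.055), Srp9 (0.060), which encodes a part of the signal recognition particle, and Plcxd2 (0.063). All 9 had lower values without overlap under the Zmiz1-KO label, as nearness to these profiles requires. The likeness rests on 6 libraries and is given as a description.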

How the data were processed

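The authors aligned reads with STAR on mm10 and had gene counts normalized by DESeq2 within BaseSpace. The deposited table is a signal of normalized counts, 1 column per library. Tool versions and the gene annotation are not given in the sources used here. Values up to 20 lay within 0.02 of a whole multiple of a library's commonest low value (1.83 to 2.11) in 51.8 to 71.9% of cases, but those over 400 in 3.80 to 4.26%, so whole reads were not recovered. The column sum divided by that step estimates the counted reads. Depth and 3 libraries per group set the precision.

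Values were analysed as log2(value + 1) with limma (version 3.58.1, R version 4.3.3; trend, robust estimation), on genes with at least 10 in at least 3 libraries, without covariate. P values were two-sided and Benjamini-Hochberg adjusted over all 15800 tested genes, with a threshold of 0.05. A fold change is on the log2(value + 1) scale. Whether each library is a separate animal is not stated, so p values measure the spread between these libraries. The procedure was tested on simulated libraries with independent noise for each gene. Shifts that many genes share within a library were not simulated, so that run does not show how the calls here would fare. Members and lists were chosen with earlier results of these data known.

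Named genes were the members, Zmiz1, the sex genes Xist and Ddx3y, genes of the area lists past the threshold, the greatest difference of each such list and the 3 nearest profiles of each called member. Fgf8, Wnt3a, Wnt8b, the LIM partners, the close relatives, Pde10a, Col1a2, Olig1 and Aqp4 were named after their values were seen. Positions and exonic lengths are from GENCODE M21 (GRCm38), and promoters from RefSeq. Alternatives, 16 in number, covered pseudocounts, filters, scaling, robustness, a replicate block, sex, an adjusted p of 0.1 and each library left out, and 2 that left out a pair of libraries were added after the data were seen. Of the listed genes, 1 is not reported here. Exact permutation tests used scipy (version 1.17.1) and figures matplotlib (version 3.10.9).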

Additional observations from a re-analysis of the deposited data

How the results depend on the processing

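The count of called genes, 65 as reported, was 17 without robust estimation, 106 at an adjusted p of 0.1, 153 without both female libraries, 358 without wildtype replicate 1 and KO-labelled replicate 2, and 12 to 152 with each library left out in turn (12 without KO-labelled replicate 3, 152 without KO-labelled replicate 2). The count of called factors, 3 as reported, was 0 in limma without robust estimation (6 at an unadjusted p under 0.05), 1 without both female libraries and 1 to 4 with each library left out. That of the related lists, 1 as reported, was 2 with at least 10 in every library, 0 without robust estimation (22 at an unadjusted p under 0.05), 3 at an adjusted p of 0.1, 3 without both female libraries, 6 without the pair of libraries named above and 0 to 3 with each library left out. The log2 fold change of Pax6 turned from 0.06 to -0.071 without both female libraries and to -0.093 without that pair, and ran from -0.043 to 0.14 with each library left out. That of Lmo3 turned from -0.01 to 0.00086 under upper-quartile scaling and to 0.032 without that pair, and ran from -0.040 to 0.028 with each library left out. The 4 ratios kept their direction under all alternatives run. Fits that left out libraries held fewer samples and called from 12 to 358 genes, some fewer and some more than the 65 reported. The cause of the changes was not tested.

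Replicate numbers are shared by the groups, but deviations of same-numbered libraries correlated at -0.0051, -0.11 and -0.0063 over the tested genes, and nothing says that they were paired. With the replicate number as a block, 168 genes, 4 of the factors (Bhlhe22 joined, limma adjusted p = 0.00760) and 7 of the listed genes passed. The exact permutation p of each ratio was then 0.25, the smallest that 3 pairs allow. The blocked log2 difference equalled the reported one, -0.41 for Emx1 to Emx2, -0.17 for Emx2 to Pax6, -0.30 for Nr2f1 to Nr2f2 and 0.10 for Lmo4 to Lmo3.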
